A study of Rattus norvegicus with 24 samples.

Results

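Circadian clock genes were followed in the dorsal striatum of rats that had self-administered methamphetamine (METH SA) under footshock punishment. They are 10 genes, Dbp, Nr1d1, Per1, Per2, Per3, Arntl, Clock, Npas2, Cry1 and Cry2, taken by symbol from the deposited annotation of an Affymetrix rat transcriptome array, and each had exactly 1 transcript cluster among the 68842 measured. A transcript cluster is the group of probes that reads 1 gene, and 24 arrays, 1 per rat, were available. The rats were male Sprague-Dawley, and their tissue was taken 1 day after a cue test given about a month after drug and shocks had ended.

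Shock-resistant rats (SR, n = 6) went on taking METH when lever presses were punished. Shock-sensitive rats (SS, n = 6) took METH on the same schedule and cut down their intake under the shocks. Both were sorted by behaviour after the fact, not assigned. Rats yoked to SR (YSR, n = 3) and rats yoked to SS (YSS, n = 3) received saline together with non-contingent shocks whenever their METH partner was shocked, and control rats (CT, n = 6) self-administered saline without shocks. The hour at which each rat was killed is not given in the sources used here, and its part in any value below was not tested.

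In mammals the clock is a loop of transcription factors that runs in nearly every tissue. CLOCK, or its forebrain relative NPAS2, pairs with BMAL1 (the product of Arntl) on E-box sequences and switches on the Per and Cry genes, whose proteins then shut their own activators off. The same activators drive Nr1d1, a nuclear receptor that represses Arntl through ROR elements, and Dbp, an output factor that binds D-box sequences, so that Arntl and the Dbp or Nr1d1 transcripts peak at opposite times of day. Clock genes are transcribed in the striatum too, where the daily rhythm of PER2 protein in rats depends on dopamine.

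RefSeq promoters of the GRCr8 build, each 250 bases before to 50 after a start site, were found for 9 of the 10 genes (11 start sites), and Cry1 had no entry. They were searched on both strands for the E-box CACGTG, the D-box TTATGTAA with its variant TTACGTAA, the ROR element core TAGGTCA with its variant TGGGTCA, and the cAMP element TGACGTCA. Over all 33469 promoters of the table, these letters stood in 6.42%, 0.893%, 0.12%, 2.63%, 4.09% and 1.83%, in that order. No match overlapped another. Matches fell in 3 clock genes, which are printed because they carry the 3 kinds of element named above, beside Ciart, a clock-controlled repressor whose array signal is taken up with Nr1d1 further on. Capitals mark the matched letters.
Nr1d1: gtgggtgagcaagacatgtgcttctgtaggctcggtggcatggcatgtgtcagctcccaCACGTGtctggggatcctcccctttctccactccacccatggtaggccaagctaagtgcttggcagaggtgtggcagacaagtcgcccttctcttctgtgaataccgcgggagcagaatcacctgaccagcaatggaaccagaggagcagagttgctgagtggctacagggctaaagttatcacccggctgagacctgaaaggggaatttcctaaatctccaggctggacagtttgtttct
Ciart: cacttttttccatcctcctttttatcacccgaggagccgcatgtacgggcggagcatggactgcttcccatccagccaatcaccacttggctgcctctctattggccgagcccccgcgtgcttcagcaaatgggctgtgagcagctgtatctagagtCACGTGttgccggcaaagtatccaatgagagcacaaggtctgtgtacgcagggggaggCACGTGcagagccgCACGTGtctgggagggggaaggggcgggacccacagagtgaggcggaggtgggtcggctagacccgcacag
Per2: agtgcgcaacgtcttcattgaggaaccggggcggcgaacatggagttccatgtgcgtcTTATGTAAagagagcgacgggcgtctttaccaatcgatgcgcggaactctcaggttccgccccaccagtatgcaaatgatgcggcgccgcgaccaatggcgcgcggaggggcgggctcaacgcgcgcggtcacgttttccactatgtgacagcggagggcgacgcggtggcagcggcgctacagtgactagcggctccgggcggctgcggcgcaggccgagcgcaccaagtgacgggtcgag
Arntl: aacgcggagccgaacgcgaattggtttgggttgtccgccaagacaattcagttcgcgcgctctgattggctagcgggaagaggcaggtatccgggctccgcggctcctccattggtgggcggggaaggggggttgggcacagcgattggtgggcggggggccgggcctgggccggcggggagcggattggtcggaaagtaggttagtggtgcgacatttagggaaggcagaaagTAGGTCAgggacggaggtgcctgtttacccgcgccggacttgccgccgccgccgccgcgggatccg

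The Nr1d1 window (chr10:84229405-84229704, minus strand) is the second of its 2 listed starts, with the E-box at position -191, counted in bases from the start. Ciart (chr2:186112197-186112496, minus strand) held 3 E-boxes, at -93, -35 and -21. Per2 (chr9:99496944-99497243, minus strand) held the D-box at -192, and Arntl (listed as Bmal1, chr1:176766078-176766377, plus strand) the ROR element core at -16. Tef, Bhlhe40, Bhlhe41 and Gsk3b, further genes of the clock system, each had 1 E-box in the window. A match describes letters in a window and no site in use.

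The values are log2 signals as deposited, where a difference of 1 is a doubling. Array medians lay between 5.11 and 5.32. The dorsal striatum label was borne out by its markers, with 10 of 11 above bioB, a bacterial RNA spiked in at a low level (log2 signal 9.27 in CT arrays), among them the dopamine receptors Drd1 and Drd2. Their mean still ran between 12.48 and 14.39 over the 24 arrays. Markers of choroid plexus, a tissue outside the striatum, ran between 5.88 and 11.11 in mean signal, with 2 of 14 above bioB and the highest group mean in YSR rats (9.41), and cortex markers ran between 7.69 and 10.67. Bulk tissue cannot tell fewer cells of a type from less RNA per cell. Signals of different genes come from different probes and were not ranked against each other.

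Among the clock genes, 6 had a mean over the 24 arrays above bioB (Npas2, Clock, Dbp, Cry2, Per3 and Nr1d1) and 4 lay below it (Per1, Arntl, Per2 and Cry1). What set the genes apart was how far single rats differed within their own group. Nr1d1 had a within-group SD of 0.47, higher than that of 90.7% of the 9755 expressed clusters, and Dbp one of 0.40, higher than 86.0%. The median over the expressed clusters was 0.21. Per1 (0.30), Per3 (0.28), Npas2 (0.27) and Per2 (0.26) lay between, while Arntl (0.17), Cry2 (0.16), Cry1 (0.15) and Clock (0.13) varied less than the median. Between the lowest and the highest of all 24 arrays Nr1d1 spanned 3.20-fold, Dbp 2.52-fold and Clock 1.35-fold.

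Dbp (chr1:101687896-101692845, plus strand, in the coordinates of the deposited annotation, which names no build) encodes the D-box output factor. Its lowest, median and highest signals were 11.12, 11.54 and 12.31 in SR rats, 11.17, 11.70 and 12.18 in SS rats, and 11.23, 11.87 and 12.35 in CT rats. The 3 YSR rats had 11.01, 11.45 and 11.81 and the 3 YSS rats 11.63, 11.14 and 11.21. All 5 groups overlapped, and the order of their means, YSS (11.33), YSR (11.42), SR (11.64), SS (11.68) and CT (11.81), had no neighbours farther apart than the SD within either.

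Nr1d1 (chr10:86683641-86691119, minus strand) had 9.13, 9.44 and 10.14 as its lowest, median and highest signal in SR rats, 8.86, 9.85 and 10.54 in SS rats, and 9.36, 9.87 and 10.24 in CT rats. In the YSR rats it was at 9.30, 9.59 and 9.48 and in the YSS rats at 9.56, 9.49 and 9.21. The SS group alone held both the highest and the lowest of the 24 arrays, 3.20-fold apart, and every other group lay inside that span.

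Per1 (chr10:55681803-55696793, plus strand) is an immediate target of glucocorticoid signals, and of light signals in the central clock. Its signals were 8.39, 8.83 and 9.24 (lowest, median, highest) in SR rats, 8.69, 8.92 and 9.55 in SS rats and 8.47, 8.89 and 9.47 in CT rats. It stood at 8.96, 9.08 and 9.01 in YSR rats and at 8.94, 8.80 and 8.78 in YSS rats. Every YSR rat was thus above every YSS rat, within a span that SR, SS and CT rats exceeded on both sides.

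Per2 (chr9:98555154-98597352, minus strand) encodes a repressor of CLOCK and BMAL1. Its lowest, median and highest signals were 7.66, 7.98 and 8.42 in SR rats, 8.16, 8.22 and 8.74 in SS rats, and 7.97, 8.35 and 8.65 in CT rats, and the yoked rats had 8.56, 8.24 and 8.35 (YSR) and 8.32, 8.67 and 8.14 (YSS). The 3 lowest values of all 24 arrays were SR rats, although the SR rats at the top of their group lay within the range of each other group. Per3 (chr5:168087447-168123434, minus strand), a Per gene whose loss leaves mice with a nearly normal rhythm, had 9.41, 9.97 and 10.09 in SR rats, 9.55, 10.04 and 10.40 in SS rats and 9.85, 10.22 and 10.41 in CT rats, with 9.80, 10.53 and 9.97 in YSR rats and 9.98, 9.93 and 9.80 in YSS rats.

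Of the activators, Arntl and Clock had a lower within-group SD than Npas2 over all groups together. In SS rats alone the SD of Npas2 was below that of either. Arntl (chr1:178039022-178137471, plus strand) averaged 8.68 ± 0.19 in SR rats, 8.77 ± 0.23 in SS rats, 8.54 ± 0.20 in YSR rats, 8.77 ± 0.08 in YSS rats and 8.71 ± 0.07 in CT rats (SD). Clock (chr14:34414320-34502218, plus strand) averaged between 11.74 and 11.87 in the 5 groups. Npas2 (chr9:45901733-46081883, plus strand) averaged 12.04 ± 0.44 in SR rats against 12.26 ± 0.10 in SS rats and 12.11 ± 0.17 in CT rats, and its SR rats alone ran from 11.35 at the lowest to 12.63 at the highest. The repressors Cry1 (chr7:24534213-24634098, plus strand) and Cry2 (chr3:81314151-81344606, minus strand) had group means between 7.45 and 7.59 and between 10.15 and 10.25.

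**Figure D1:**
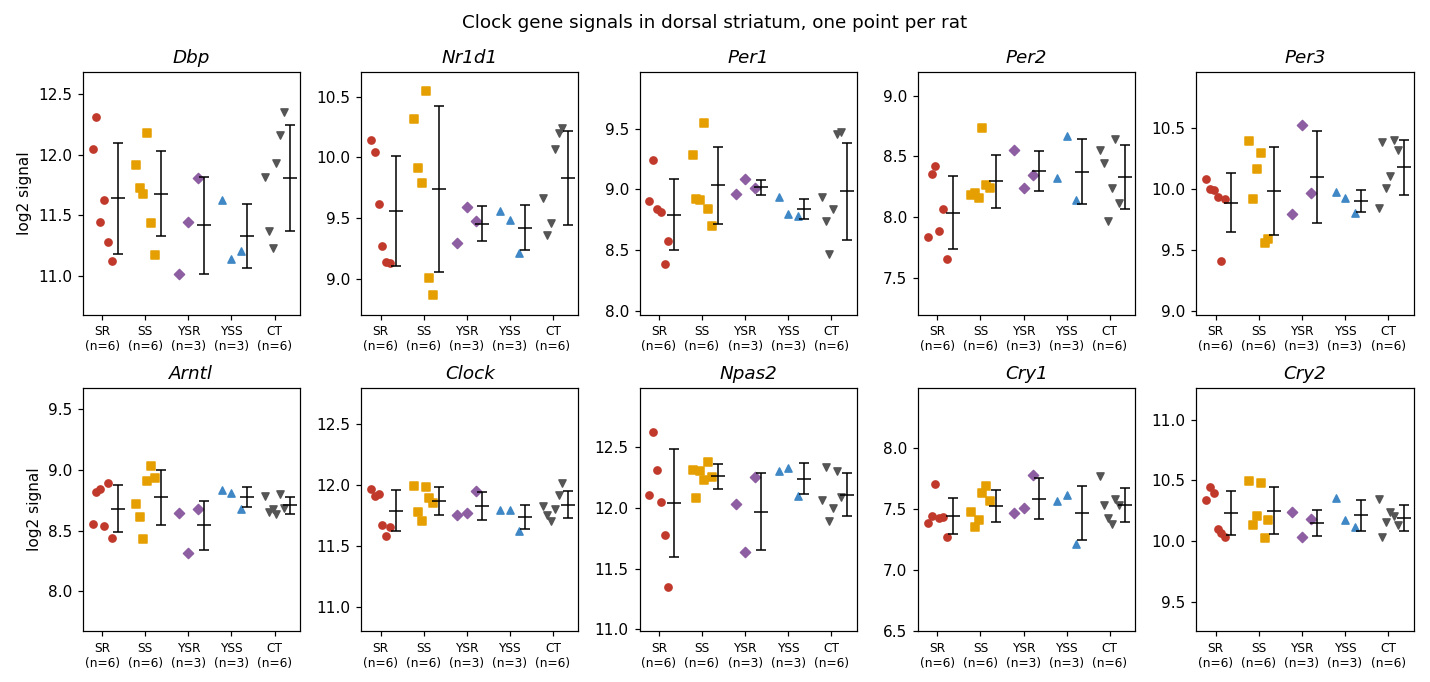
Log2 signal (vertical axis, each panel spanning 2 log2 units) of each clock gene in every rat, by group, with the mean and SD as a black bar beside the points. The groups overlap in nearly every panel, and the points of Dbp, Nr1d1 and Per1 spread far wider within SR, SS and CT than those of Clock or Cry2.

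The first question was whether METH SA with punishment left the clock genes at another level than saline. In the limma fit of 5 group means over all clusters, 0 of 10 passed an unadjusted p under 0.05 in SR against CT, where 5.41% of all clusters did, and 0 clusters of any kind passed after Benjamini-Hochberg adjustment in this or any other comparison. By sign, 1 of 10 clock genes was higher and 9 lower in SR rats (median log2 difference -0.13). Of all clusters 37.8% were higher and of the expressed clusters 41.5%, with a median of -0.04 in both. The nearest to the threshold were Per2, with 8.04 ± 0.30 in SR rats and 8.33 ± 0.26 in CT rats (SD), and Per3, with 9.89 ± 0.24 in SR rats and 10.18 ± 0.23 in CT rats. Per2 differed by -0.29 (SE 0.14, 95% confidence interval -0.58 to 0.0013, limma adjusted p = 0.86), with an exact 2-sided permutation p of 0.104. Per3 differed by -0.29 (SE 0.16, interval -0.61 to 0.03, limma adjusted p = 0.86), with an exact permutation p of 0.0563. Per2 passed an unadjusted 0.05 after quantile normalization (-0.29) and with the choroid plexus (-0.28) or cortex (-0.30) marker mean as a covariate, and Per3 in a fit of these groups alone (-0.29). All 9 immediate early genes, which report recent neuronal activity, had lower means in SR rats than in CT rats, 4 of them past an unadjusted 0.05, and their part in the Per2 value was not tested.

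In SS against CT, 0 of 10 clock genes passed, against 5.17% of all clusters, with 5 higher and 5 lower. Npas2 averaged 12.26 ± 0.10 in SS rats and 12.11 ± 0.17 in CT rats, a difference of 0.15 (SE 0.15, limma adjusted p = 0.971, exact permutation p = 0.128). Per3 averaged 9.99 ± 0.36 in SS rats and 10.18 ± 0.23 in CT rats, a difference of -0.19 (SE 0.16, limma adjusted p = 0.971, exact permutation p = 0.29). SR against SS asks whether rats that kept taking METH differed from rats that cut down. It gave 0 of 10, against 3.56% of all clusters, though all 10 differences had the same sign, lower in SR rats (median -0.10). Of all clusters 46.1% were higher (median -0.01), and of the expressed clusters 37.7% (median -0.05). Per2 differed by -0.26 (SE 0.14, interval -0.55 to 0.03, exact permutation p = 0.128) and Per1 by -0.24 (SE 0.17, exact permutation p = 0.199), both at a limma adjusted p of 1. Since the clock genes vary together from rat to rat, as described further on, 10 like signs are not 10 separate observations. Without SR replicate 2, Per2 (-0.32) and Npas2 (-0.34) passed an unadjusted 0.05 in SR against SS, and so did Per2 without SR replicate 3 (-0.33).

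Setting yoked rats against CT rats asks what shocks did without METH. None of the 10 genes passed in YSR against CT (4.13% of all clusters did) or in YSS against CT (5.16% did). The widest gaps lay in the output genes and had the same sign in both. Dbp differed by -0.39 in YSR rats against CT (11.42 ± 0.40 and 11.81 ± 0.44, SE 0.27, limma adjusted p = 1, exact permutation p = 0.238) and by -0.48 in YSS rats against CT (11.33 ± 0.27 and 11.81 ± 0.44, SE 0.27, interval -1.03 to 0.06, limma adjusted p = 0.954, exact permutation p = 0.107). Nr1d1 differed by -0.38 (9.46 ± 0.15 in YSR rats and 9.83 ± 0.39 in CT rats, exact permutation p = 0.19) and by -0.41 (9.42 ± 0.19 in YSS rats, exact permutation p = 0.155). Both yoked groups were set against the same CT rats, so these are not separate observations, and the smallest exact p that 3 against 6 rats can reach is 0.0119. Without CT replicate 2, CT replicate 3 or YSS replicate 1, Dbp passed an unadjusted 0.05 in YSS against CT (-0.57, -0.60 and -0.64). Dorsal striatum markers were lower in 11 of 11 cases in YSR rats and in 10 of 11 in YSS rats, with 0 passing in either. With their mean as a covariate, the Dbp difference was -0.15 in YSR and -0.29 in YSS rats against CT, and with the cortex marker mean, whose genes were higher in YSS than in CT rats in 10 of 10 cases with 3 passing, it was -0.30 and -0.22.

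YSR and YSS rats differ in the number of shocks taken by their partners. With 0 of 10 genes passing (6.05% of all clusters did), 2 genes had groups without overlap, a feature of 9.35% of all clusters in this comparison. These were Arntl, with 8.64, 8.31 and 8.68 in YSR rats against 8.84, 8.81 and 8.68 in YSS rats (the 2 values of 8.68 differ in the third decimal), and Per1. Arntl differed by -0.23 (SE 0.14, limma adjusted p = 0.842), and its exact permutation p of 0.1 is the smallest that 3 against 3 rats allow. Npas2 differed by -0.27 (11.97 ± 0.31 in YSR rats and 12.24 ± 0.13 in YSS rats, SE 0.21, limma adjusted p = 0.88, exact permutation p = 0.2). Choroid plexus markers were higher in YSR rats in 14 of 14 cases, with 2 passing, and with their mean as a covariate the difference was -0.12 for Arntl and -0.10 for Npas2.

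Setting each METH group against the saline rats yoked to it gave 0 of 10 in SR against YSR (6.41% of all clusters) and 0 of 10 in SS against YSS (5.7%). The labels name no partner for a single rat, so the groups were compared unpaired. Per2 again had the widest gap in SR against YSR, with 8.04 ± 0.30 in SR rats and 8.38 ± 0.16 in YSR rats. The difference was -0.34 (SE 0.17, interval -0.70 to 0.01, limma adjusted p = 0.785, exact permutation p = 0.119). With the choroid plexus marker mean as a covariate this became -0.47 and passed an unadjusted 0.05, as did Cry1 at -0.23, and Per2 passed with the dorsal striatum marker mean too (-0.38). Per1 differed by -0.23 (SE 0.20, exact permutation p = 0.238). Glucocorticoid-responsive genes, with which Per1 shares a regulator, were lower in SR than in YSR rats in 8 of 8 cases, of which 6 passed an unadjusted 0.05, and their part in the Per1 value was not tested. In SS against YSS 8 of 10 genes were higher, beside 40.8% of all clusters and 56.4% of the expressed clusters. Dbp led at 0.36 (11.68 ± 0.35 and 11.33 ± 0.27, SE 0.27, limma adjusted p = 0.919, exact permutation p = 0.155), followed by Nr1d1 at 0.32 (9.74 ± 0.68 and 9.42 ± 0.19, SE 0.31, limma adjusted p = 0.931, exact permutation p = 0.464). The difference between these differences passed in 0 of 10 genes (5.16% of all clusters), with Per1 at -0.42 (SE 0.29) and Per3 at -0.29 (SE 0.27), at limma adjusted p-values of 0.962 and 0.964. An F test over all 5 groups passed in 0 of 10, against 5.03% of all clusters, and the smallest of its p-values was that of Per2 (0.176, limma adjusted p = 0.924).

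Intervals show what the numbers of rats could resolve. For Clock in SR against CT the interval ran from -0.22 to 0.11 and for Cry2 from -0.15 to 0.23. For Nr1d1 it ran from -0.79 to 0.25 and for Dbp from -0.62 to 0.28. The intervals of Nr1d1 and Dbp thus span differences that those of Clock and Cry2 leave out.

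**Figure D2:**
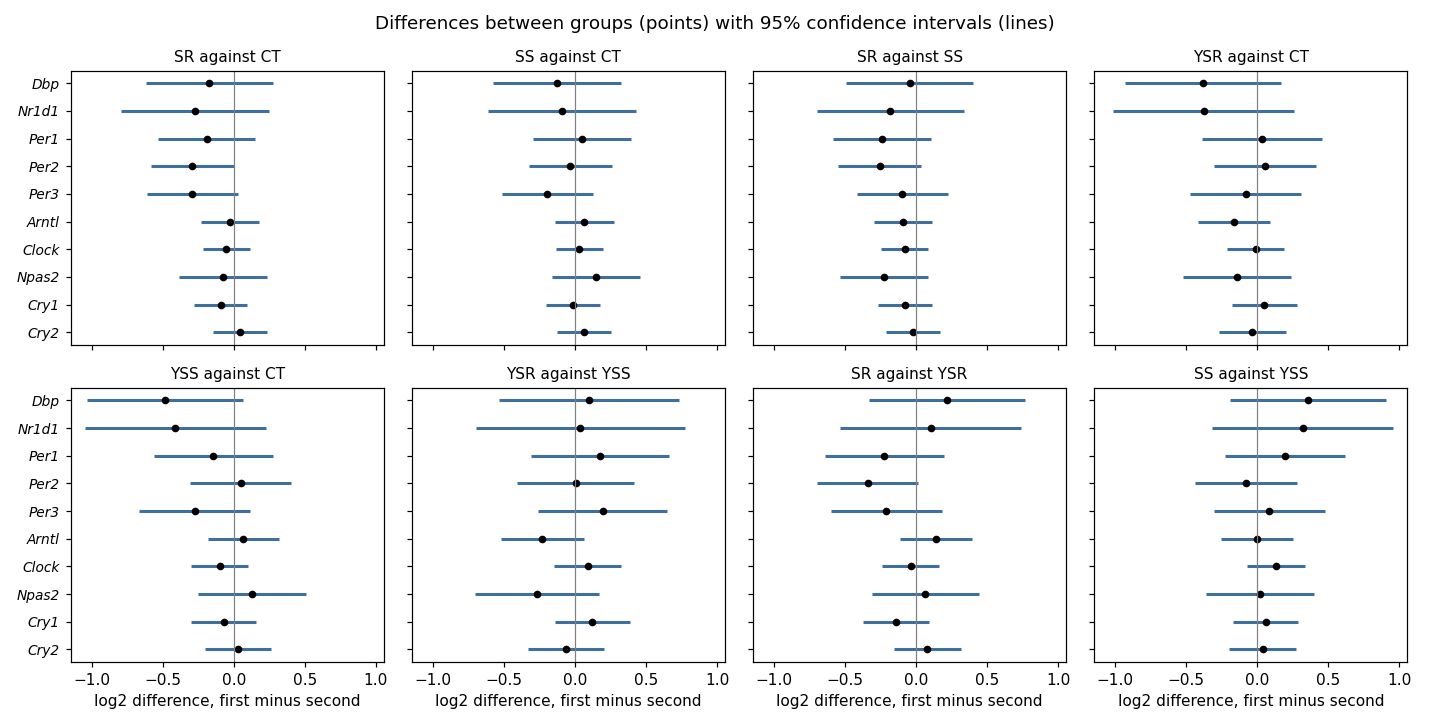
Log2 differences (horizontal axis, first-named group minus second) of the 10 clock genes in 8 comparisons, as points with 95% confidence intervals from the limma fit. All intervals hold 0, and those of Dbp and Nr1d1 are the widest.

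Of 20 further genes of the clock system, 19 had a cluster and 9 of these lay above bioB in the CT arrays. At an unadjusted p under 0.05, 0 of 19 passed when SR rats were set against CT, SS or YSR rats, and 0 in YSR against CT. The count was 1 in SS against CT (5.17% of all clusters passed), 2 in YSS against CT (5.16%), 1 in YSR against YSS (6.05%), 2 in SS against YSS (5.7%) and 1 in the difference between SR against YSR and SS against YSS (5.16%). Counts of 1 or 2 in 19 lie near these shares of all clusters, and the calls are given as values of single genes. Bhlhe40 encodes DEC1, an E-box repressor. Its lowest, median and highest signals were 10.81, 11.28 and 11.40 in SS rats and 10.60, 10.84 and 11.20 in CT rats, so that the groups overlapped. It was higher in SS rats (11.21 ± 0.21) than in CT rats (10.84 ± 0.21), with a difference of 0.37 (SE 0.13, limma adjusted p = 0.908), and this call was made in each fit that left out 1 array. The 3 YSS rats (11.19 ± 0.25) differed from the same CT rats by 0.35 (SE 0.16, limma adjusted p = 0.954), a call lost with the cortex (0.30) or dorsal striatum (0.31) marker mean as a covariate, after median centring (0.34) and with a replicate block (0.35). It was also lost without CT replicate 2 (0.32), CT replicate 5 (0.31), YSS replicate 1 (0.36) or YSS replicate 3 (0.23).

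The remaining calls were of Arntl2 and Rora. Arntl2, a relative of Arntl at low signal, had 4.62, 4.98 and 4.96 in YSS rats, with group means of 4.52 ± 0.06 in SS rats, 4.63 ± 0.16 in YSR rats, 4.85 ± 0.20 in YSS rats and 4.57 ± 0.03 in CT rats. It passed in YSS against CT (0.28) and in SS against YSS (-0.33, SE 0.09, limma adjusted p = 0.859), also in each of 8 alternative fits and each fit that left out 1 array. In YSR against YSS it passed narrowly (-0.22, limma adjusted p = 0.824), and this call was lost in 6 of 8 alternative fits, the replicate block among them (-0.22), and in 19 of 24 fits that left out 1 array. The lowest YSS rat (4.62) lay next to the highest CT rat (4.61). Rora, a nuclear receptor that activates Arntl and lay well above bioB, passed in SS against YSS by a narrow margin (11.14 ± 0.27 and 10.83 ± 0.04, difference 0.31, limma adjusted p = 0.876). The call was lost in 6 of 9 alternative fits, among them the dorsal striatum (0.22) or cortex (0.22) marker mean as a covariate, quantile normalization (0.29) and the replicate block (0.32), and in 13 of 24 fits that left out 1 array.

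What the clock genes did show was joint variation among rats. Each signal was taken as its deviation from the group mean, and all 45 pairs were correlated over the 24 arrays, with 100000 permutations of arrays within groups. After Benjamini-Hochberg adjustment over the 45, 20 pairs (44.4%) passed 0.05, all of them positive, and 42 of the 45 were above 0. The lowest of the 20 was at an r of 0.509, which 13.2% of all pairs among the 4292 expressed clusters with 1 gene name also reached, and the median r was 0.48 for the clock pairs and 0.09 for all pairs. Joint variation was thus common among the arrays in general, and the count of clock pairs is read beside it.

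The tightest pairs joined Dbp, Nr1d1 and Per1. Per1 and Dbp had r = 0.86 (permutation p = 1e-05, adjusted 0.000225, rho = 0.84, permutation p = 5e-05), and Nr1d1 and Dbp r = 0.84 (permutation p = 1e-05, adjusted 0.000225, rho = 0.86, permutation p = 1e-05), where 1e-05 is the smallest p these permutations can give. Only 0.397% and 0.582% of all pairs were as high. Per1 and Nr1d1 had r = 0.81 (permutation p = 5e-05, adjusted 0.00075, rho = 0.83, permutation p = 0.00013). The relation stood in each group of 6. Nr1d1 and Dbp correlated at 0.89 in SR rats, 0.97 in SS rats and 0.95 in CT rats, and Per1 and Dbp at 0.89, 0.94 and 0.93. Next, the 2 arrays farthest from the median of 1 gene of the pair, here the first-named, were left out. The 3 pairs kept r of 0.82 (Per1 and Dbp), 0.83 (Nr1d1 and Dbp) and 0.76 (Per1 and Nr1d1). Further on, the 2 farthest arrays are again those of the first-named clock gene. Against marker lists or further clock genes they are those of the clock gene among the 10. Arrays far off in the other gene or list were not left out as such. Rats with high Dbp, such as SR replicate 2 (12.31), SS replicate 4 (12.18) and CT replicate 6 (12.35), also had Nr1d1 at 10.05, 10.54 and 10.24 and Per1 at 9.24, 9.55 and 9.47. Those with low Dbp, such as SR replicate 6 (11.12), SS replicate 6 (11.17) and CT replicate 3 (11.23), had Nr1d1 at 9.13, 8.86 and 9.46 and Per1 at 8.57, 8.69 and 8.47. These rats held the highest and lowest Dbp of SR, SS and CT. Among yoked rats Dbp was lowest in YSR replicate 1 (11.01) and YSS replicate 2 (11.14). Their Nr1d1 stood at 9.30 and 9.49 and their Per1 at 8.96 and 8.80, less low than in most of the rats above.

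**Figure D3:**
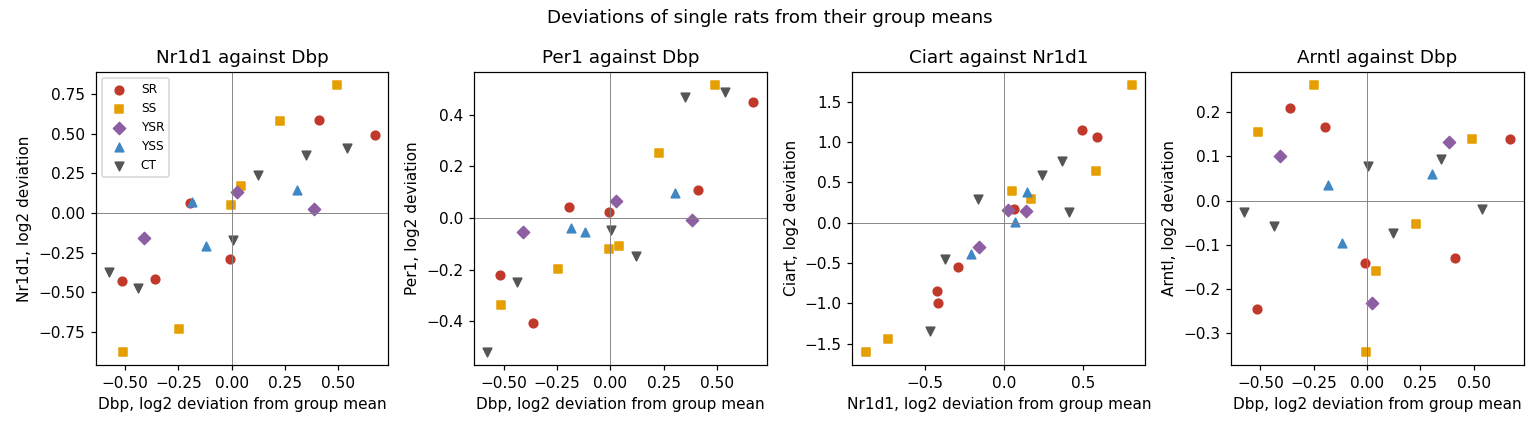
Each point is a rat, plotted by its log2 deviation from the mean of its own group, for Nr1d1 and Per1 against Dbp, Ciart against Nr1d1 and Arntl against Dbp, with markers by group. The points of the first 3 panels lie along a rising line (r = 0.84, 0.86 and 0.95), and those of Arntl against Dbp form no line (r = 0.04).

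Per3 joined this set with Nr1d1 (r = 0.71, permutation p = 0.00071, adjusted 0.00532, rho = 0.65, permutation p = 0.00247), at 0.94 in SS rats but 0.34 in CT rats. Clock was tied to Per1 (r = 0.73, permutation p = 0.00014, adjusted 0.00157, rho = 0.75, permutation p = 9e-05) and to Dbp (r = 0.70, permutation p = 0.00108, adjusted 0.00694, rho = 0.67, permutation p = 0.00228). Cry2 was tied to Nr1d1 (r = 0.69, permutation p = 0.00297, adjusted 0.0121, rho = 0.68, permutation p = 0.00353), at 0.53 without the 2 farthest arrays. Without its own 2 farthest arrays r was 0.75 for Per3 and Nr1d1, 0.66 for Per1 and Clock and 0.635 for Clock and Dbp.

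A second, looser set held Arntl, Cry1, Per2 and Npas2, and Clock had pairs in both. Within it Arntl and Npas2 did not pass (r = 0.48, permutation p = 0.0419, adjusted 0.0787). Arntl, the activator whose rhythm opposes that of Dbp, had r = 0.04 with Dbp (permutation p = 0.871, adjusted 0.891, rho = -0.0035, permutation p = 0.99) and its lowest value with Per3 (r = -0.49, permutation p = 0.0573, adjusted 0.103, rho = -0.40, permutation p = 0.0954). It correlated with Cry1 (r = 0.67, permutation p = 0.00031, adjusted 0.00279, rho = 0.70, permutation p = 0.00022), at 0.69 in SR rats, 0.90 in SS rats and 0.77 in CT rats, and with Per2 (r = 0.60, permutation p = 0.00267, adjusted 0.012, rho = 0.71, permutation p = 0.00032). Per2 in turn correlated with Cry1 (r = 0.63, permutation p = 0.00234, adjusted 0.0117, rho = 0.70, permutation p = 0.00063) and with Npas2 (r = 0.61, permutation p = 0.00483, adjusted 0.0167, rho = 0.56, permutation p = 0.0145), though at -0.09 in SS rats for this last pair. Without the 2 farthest arrays r was 0.64 for Arntl and Cry1, 0.51 for Per2 and Arntl, 0.57 for Per2 and Cry1 and 0.60 for Per2 and Npas2, and -0.28 for Per3 and Arntl. Clock, tied to Per1 and Dbp above, also correlated with Npas2 (r = 0.58, permutation p = 0.016, adjusted 0.0388, rho = 0.62, permutation p = 0.00747, r = 0.60 without the 2 farthest arrays) and with Cry1 (r = 0.54, permutation p = 0.0111, adjusted 0.0295, rho = 0.59, permutation p = 0.00503, r = 0.63 without them). Per2 and Dbp had r = 0.25, and Cry1 and Nr1d1 r = 0.0014.

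Marker levels moved with several of these genes. Of 100 relations between the 10 genes and 10 marker or response lists, 12 positive and 7 negative passed an adjusted 0.05. The mean of the dorsal striatum markers correlated with Clock (r = 0.87, permutation p = 1e-05, adjusted 0.001, rho = 0.85, permutation p = 1e-05, r = 0.88 without the 2 farthest arrays), with Dbp (r = 0.72, permutation p = 0.00045, adjusted 0.00562, rho = 0.65, permutation p = 0.00177, r = 0.74 without them) and with Per1 (r = 0.65, permutation p = 0.00052, adjusted 0.00578, rho = 0.70, permutation p = 0.00022, r = 0.60 without them). Per2 correlated with the immediate early genes (r = 0.70, permutation p = 0.00021, adjusted 0.00467, rho = 0.68, permutation p = 0.00085), at 0.94 in SR rats and 0.96 in CT rats but at -0.04 in SS rats, and negatively with oligodendrocyte markers (r = -0.73, permutation p = 0.00024, adjusted 0.00467, rho = -0.76, permutation p = 0.00021). Dbp correlated with glucocorticoid-responsive genes (r = 0.73, permutation p = 0.00023, adjusted 0.00467, rho = 0.70, permutation p = 0.00039). Nr1d1 correlated negatively with hypothalamic markers (r = -0.72, permutation p = 0.00028, adjusted 0.00467, rho = -0.80, permutation p = 8e-05), of which 0 of 7 had a mean above bioB. Single arrays still reached 14.52 for Oxt (mean over 24 arrays 6.89) and 10.2 for Pmch (4.89). The mean of this list ran up to 7.06 in SR rats, from 5.17 at the lowest in SS rats. Arrays high in this list were not left out as such. Without the 2 farthest arrays these were 0.77 (Per2 and immediate early genes), -0.70 (Per2 and oligodendrocyte markers), 0.68 (Dbp and glucocorticoid-responsive genes) and -0.74 (Nr1d1 and hypothalamic markers).

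With the dorsal striatum marker mean removed by regression, a setting chosen after the values were seen, 8 of the 45 pairs passed. Of the clock genes tied to that mean, Clock no longer passed with Dbp (r = 0.21) or Per1 (r = 0.42). The set of Dbp, Nr1d1, Per1 and Per3 held 5 of the 8 pairs, with r = 0.74 for Per1 and Dbp, 0.73 for Nr1d1 and Dbp, 0.70 for Per3 and Nr1d1, 0.69 for Per1 and Nr1d1 and 0.60 for Per1 and Per3. Arntl and Cry1 had 0.58. The other two were negative and ran between the sets, Per3 with Arntl (r = -0.71, adjusted p = 0.0119 by permutation) and Cry1 with Nr1d1 (r = -0.59, adjusted p = 0.0101 by permutation). With the choroid plexus mean removed instead, 13 pairs passed. Of the pairs within the set of Arntl, Cry1, Per2 and Npas2, only Arntl and Cry1 passed there (r = 0.54). It was also the only such pair that passed with the dorsal striatum mean removed.

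**Figure D4:**
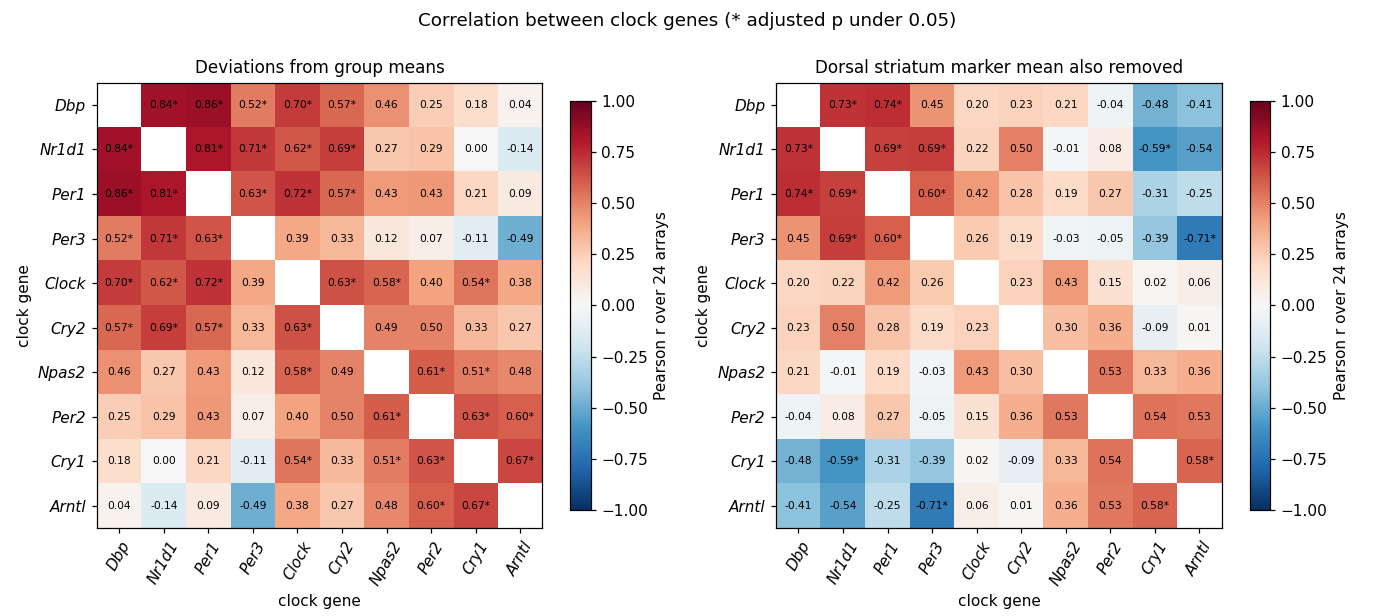
Pearson r over 24 arrays for every pair of clock genes, from deviations from group means (left) and with the dorsal striatum marker mean also removed (right), red for positive and blue for negative, with an asterisk at an adjusted permutation p under 0.05. Dbp, Nr1d1, Per1 and Per3 form a red block in both maps, Arntl and Cry1 stay red with each other, and several cells between the 2 sets are blue on the right.

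Further clock genes were set against the same 10. Over 190 relations between the 10 genes and the 19 others, 53 positive and 3 negative passed an adjusted 0.05, and Dbp, Nr1d1, Per1 and Cry2 had 9 positive each, Clock 8 and Per3 6, with 1 for Arntl, Npas2 and Cry1 and 0 for Per2. Genes differed in how many expressed clusters they moved with. An r of 0.5 or more was reached by 10 of the 19 with Dbp (14.5% of the expressed clusters with 1 gene name), 9 with Cry2 (18.2%), Clock (17.1%), Per1 (12.6%) and Nr1d1 (12.3%), 6 with Per3 (4.64%), and 1 with Arntl (11.9%), Cry1 (10.7%), Npas2 (9.48%) and Per2 (9.44%). These shares are over expressed clusters, whereas only 9 of the 19 genes lay above bioB in the CT arrays, so the sets are not alike. The strongest, named after their values were seen, joined Nr1d1 to Ciart, the E-box gene printed above (r = 0.95, permutation p = 1e-05, adjusted 0.000271, rho = 0.90, permutation p = 4e-05), with 0.99 in SR rats, 0.98 in SS rats and 0.82 in CT rats and 0.94 without the 2 farthest arrays. Ciart lay below bioB, with a CT mean of 8.87. It ran from 7.53 to 10.84 over SS rats, 7.75 to 9.90 over SR rats and 7.53 to 9.63 over CT rats. With the dorsal striatum mean removed the r of Ciart and Nr1d1 was 0.92.

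Nr1d2, the sister receptor of Nr1d1, followed Dbp (r = 0.87, permutation p = 1e-05, adjusted 0.000271, rho = 0.88, permutation p = 1e-05, r = 0.87 without the 2 farthest arrays), as did Usp2, a rhythmic deubiquitinase (r = 0.88, permutation p = 1e-05, adjusted 0.000271, rho = 0.87, permutation p = 1e-05, r = 0.83 without them). Gsk3b, a kinase that marks clock proteins for turnover, followed Clock (r = 0.91, permutation p = 1e-05, adjusted 0.000271, rho = 0.89, permutation p = 1e-05, r = 0.93 without them), and this r was 0.50 once the dorsal striatum mean was removed. Usp2 lay just below bioB, with a CT mean of 9.23.

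Among the 4292 expressed clusters with 1 gene name, those whose deviations were most like Dbp were Mbnl2 (r = 0.91), Foxp2 (0.90), Zfp280d (0.88), Nr1d2 (0.87) and Smarcd1 (0.87), and Nr1d1 ranked 15th (0.84). Those most like Arntl were Grm7 (0.87), Calb1 (0.85), Syt4 (0.83), Spred2 (0.81) and Dmtf1 (0.81). All are descriptions over the same 24 arrays.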

How the data were processed

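Total RNA of 1 dorsal striatum per rat was labelled and hybridized to an Affymetrix rat transcriptome array by the authors, who summarized the scans in Affymetrix Expression Console (version and algorithm not given in the sources used here). The deposited log2 signals of 68842 transcript clusters on 24 arrays were used as they stand, after 1738 control rows were left out. A cluster was called expressed where its CT mean exceeded that of bioB, as in the study's methods. For the 4292 expressed clusters with 1 gene name, the mean over all 24 arrays was set against that of bioB instead. A further table deposited by the authors holds group averages in log2, the number of probes per cluster, and fold changes, p-values and FDR values of their own comparisons, and these comparison columns were not used. Columns of per-sample values left without a sample numbered 0.

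Group means were fitted with limma 3.58.1 in R 4.3.3 over all 68842 clusters (prior degrees of freedom 3.787), with Benjamini-Hochberg adjustment within each comparison. Single genes were also compared by exact 2-sided permutation of arrays, and pairs of genes by 100000 permutations within groups (scipy 1.17.1, numpy 2.4.6, pandas 2.3.3). Intervals of differences are 95% intervals of the limma fit. Nothing says that arrays of a group share a litter or batch, and p-values measure the spread between these rats. Scripts were tested on simulated data. The number of arrays limits the precision.

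All 10 clock genes were described. Each comparison names the clock genes past an unadjusted 0.05, or otherwise the 2 with the largest difference, and up to 4 further clock genes past 0.05. At most 8 pairs by r were named by rule, with others named after their values were seen, and 5 clusters most like Dbp and like Arntl. Some genes of the clock system are not reported here. The members and gene lists were chosen with earlier results of these data known. Alternatives were quantile normalization, median centring, expressed clusters only, no moderation, a fit of the compared groups alone, a replicate block, 1 array left out, and marker means of choroid plexus, dorsal striatum and cortex as covariates.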

Additional observations from a re-analysis of the deposited data

Results flagged for a closer look

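In 39 sets of 6 arrays (13 genes in SR, SS and CT rats), 2 held an array far from the rest, and chance flags about 1 in 20 groups. Per2 in SS replicate 4 was at 8.74, against 8.16 to 8.27 in the other SS rats, a gap of 0.818 of the group's range. The same rat had the highest Nr1d1 (10.54), Per1 (9.55) and Ciart (10.84) of all 24 arrays. Per3 in SR replicate 5 was at 9.41, against 9.92 to 10.09 in the other SR rats, a gap of 0.751 of the range.

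The difference between SR against YSR and SS against YSS passed an unadjusted 0.05 for Arntl2, a gene at low signal (0.29, limma adjusted p = 0.954). Leaving out 1 array at a time, the value ran between 0.23 and 0.41 and passed in 19 of 24 fits. It was lost without SR replicate 5 (0.26), YSR replicate 2 (0.24), YSR replicate 3 (0.25), YSS replicate 2 (0.23) or YSS replicate 3 (0.24), and also after quantile normalization (0.24), after median centring (0.27) and with the choroid plexus mean as a covariate (0.28).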

How the results depend on the processing

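Counts of clock genes past an unadjusted 0.05 stayed at 0 in 80 of 88 alternative fits. In SR against CT the count was 1 after quantile normalization, with the choroid plexus mean or the cortex mean as a covariate, and in a fit of these groups alone. With the choroid plexus mean it was also 1 in SR against SS, 2 in SR against YSR and 1 in the difference between SR against YSR and SS against YSS (Cry1, -0.35), and with the dorsal striatum mean it was 1 in SR against YSR. The cause was not tested. Counts of further clock genes, from 0 to 2 in the comparisons reported, were less stable and changed by over 1.5 times, or from or to 0, in 31 of 88. Leaving out 1 array at a time, the count ran from 0 to 1 in SR against CT, YSS against CT and SR against YSR, from 0 to 2 in SR against SS and from 0 to 0 in the other comparisons and the F test. Per2 in SR against CT passed without CT replicate 3 or 6, SR replicate 2 or 3, SS replicate 4 or YSS replicate 2 or 3, and Per3 without CT replicate 1. In SR against YSR, Per2 passed without SR replicate 2 or 3 or SS replicate 4. The covariates of dorsal striatum and cortex were chosen after the data were seen.

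Of the 45 pairs, 20 passed, against 22 from raw values, 21 after quantile normalization, 20 by rho, 13 with the choroid plexus mean, 24 with the cortex mean, 8 with the dorsal striatum mean and 15 to 24 with 1 array left out. For the 8 pairs named by rule, 53 of 56 values passed under the settings that kept all arrays. Those lost, with the dorsal striatum mean, were Per1 and Clock (0.42), Clock and Dbp (0.21) and Cry2 and Nr1d1 (0.50). Pairs named outside that rule were less stable. Per2 with Arntl, Cry1 or Npas2, and Clock with Npas2 or Cry1, no longer passed with the choroid plexus mean. They did not pass with the dorsal striatum mean either. No named difference changed sign in 211 alternative values or in 600 with 1 array left out.

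The labels number the rats in each group. Over 39 pairs of same-numbered arrays the residual correlation had a median of -0.12 (range -0.69 to 0.64). An array of the same number was the nearest one among the other groups for 6 of the 24 arrays. The check took all groups together, gave no level to set this against, and did not single out yoked partners. It cannot tell whether the numbers pair any rats. A replicate block gave 0 clock genes in each comparison and 24 pairs, and of the further clock genes it ended the calls of Bhlhe40 in YSS against CT, Arntl2 in YSR against YSS and Rora in SS against YSS and added 1 call in SR against YSR. Each clock gene had 1 cluster, so the mean over clusters of a symbol gave no other value, and 4 clock genes below bioB had none in the fit of expressed clusters. Quantile normalization or median centring changed the log2 differences of all clusters by a median of -0.0174 to 0.0529, depending on the comparison. With 3 to 6 rats a group, differences in Dbp and Nr1d1 are the least resolved.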
